A study of Mus musculus with 12 samples.

Results

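Accessible chromatin at Tbl1xr1, Ncor1 and Hdac3, 3 genes of the nuclear receptor corepressor complex, was followed in mouse hepatocytes through fasting and through freezing of the tissue. The members are the 32 rows of the deposited peak table, of 52530 in all, whose nearest gene is one of these names: 30 for Tbl1xr1, 1 for Ncor1 and 1 for Hdac3. The genes were selected on measured values of these data. Which values those were is not recorded, so every fasting value below is a description. Calls from the fit over all peaks are counted for fasting, and no statement rests on them. Results on freezing were also known when the genes were chosen, so the freezing differences and their p-values are likewise descriptions.

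Open DNA was mapped by ATAC-seq, where a transposase inserts sequencing adapters into accessible chromatin, in nuclei of hepatocytes from 6 HEP-INTACT mice, all female, whose tagged nuclei are pulled from whole liver on beads. The 3 fasted mice went without food for 16 h that began at ZT12, when lights go off and mice become active. The 3 fed mice ate freely and were killed at a matched hour. Each mouse gave 1 library from fresh and 1 from frozen liver, so 4 groups of 3 libraries were compared, and all of them carry the HEP-INTACT alleles. The sources used here give neither age nor the promoter behind the tag. The values of each library are whole multiples of a step, and the libraries held between 3692152 and 14506057 steps in peaks. A step may be 1 read, which could not be settled from the values. Among marker genes, all 8 for hepatocytes had peaks, with 11 peaks within 1 kb of a start, whereas of the markers of other liver cells 2 of 6 macrophage, 5 of 6 endothelial, 2 of 6 stellate, 3 of 5 bile duct and 1 of 5 lymphocyte genes had any peak. Within 1 kb of their starts these other markers had 1 stellate and 1 bile duct peak, and the macrophage, endothelial and lymphocyte lists had 0.

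Ncor1 encodes the scaffold that nuclear receptors such as the thyroid hormone, retinoic acid and Rev-erb receptors bind when they repress genes. Hdac3 encodes the histone deacetylase of the complex, which is active when bound to its corepressor scaffold. Tbl1xr1 encodes TBLR1, a WD40 repeat subunit that holds the complex on chromatin and takes part in the exchange of corepressors for coactivators. In liver the complex is known for restraining genes of lipid and bile acid metabolism, with a daily rhythm set by the Rev-erb receptors.

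The sequences before the starts of Tbl1xr1 and Ncor1 are shown because the peaks at these starts, measured below, lie on them. Each runs 5′ to 3′ on the strand of the gene and ends at the last base before the start used in the table. They are from RefSeq, build GRCm38.p6, the assembly known as mm10: chr3:22076402-22076651 on the plus strand and chr11:62457333-62457582 on the minus strand. RefSeq lists the Tbl1xr1 gene from 22076253, so the whole Tbl1xr1 window lies inside the listed gene. The Ncor1 gene is listed up to 62457414, so the part of its window nearest the start used lies inside it too. Capitals mark the letters of the motifs searched.

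Tbl1xr1: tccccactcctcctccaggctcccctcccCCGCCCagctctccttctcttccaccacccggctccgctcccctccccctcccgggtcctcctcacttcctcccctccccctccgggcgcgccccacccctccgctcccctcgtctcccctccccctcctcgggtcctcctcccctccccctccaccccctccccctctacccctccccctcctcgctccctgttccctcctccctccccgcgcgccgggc

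Ncor1: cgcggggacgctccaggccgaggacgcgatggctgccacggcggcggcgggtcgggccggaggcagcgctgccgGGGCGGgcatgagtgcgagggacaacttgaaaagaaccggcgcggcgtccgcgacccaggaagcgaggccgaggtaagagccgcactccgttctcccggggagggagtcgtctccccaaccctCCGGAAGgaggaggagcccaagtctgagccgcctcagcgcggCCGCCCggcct

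Both stretches are rich in G and C, at 76.0% for Tbl1xr1 and 73.6% for Ncor1, against a median of 52.4% over 32851 promoter windows of 250 bases. They differ in CpG pairs, of which Tbl1xr1 has 15 and Ncor1 34, with a median of 6 over all windows. The Tbl1xr1 window is mostly C and T on the coding strand. A set of 12 short motifs was searched on both strands. GGGCGG, the GC box, was found in Tbl1xr1 221 bases before the start and in Ncor1 176 and 11 bases before it, and 32.7% of all windows hold it. CCGGAAG, the ETS motif, lay 53 bases before the Ncor1 start and occurs in 6.91% of windows. This match and the GC box 11 bases before the start used lie inside the listed Ncor1 gene. The other motifs had no match in either window: TGTTTAC (forkhead), ACANNNTGT (glucocorticoid receptor core), TTGCNNAA (C/EBP), TTCNNNGAA (STAT), CAAAGTCCA (HNF4), AGGTCA (nuclear receptors), TTGGCA (NFI), TGACGTCA (CREB), CACGTG (E-box) and TGANTCA (AP-1). The overlaps are partial: 55 bases of the Tbl1xr1 window lie in the peak at 296 bp before the start, 83 in the peak at 17 bp after it, and 136 bases of the Ncor1 window in the Ncor1 peak.

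The 30 Tbl1xr1 peaks spread over 689 kb of chromosome 3, from 21426644 to 22115475 on mm10, each listed as 200 bp. In the table a gene has a median of 2 peaks, and 19 of 15001 genes have 30 or more. Of these peaks 20 are intergenic, 6 lie in the first intron, and 4 lie within 1 kb of the start. The nearest protein-coding genes outside are Agtr1b, which ends at 20367177, and Naaladl2, which starts at 23798103, so the nearest-gene rule assigns a wide stretch without other coding genes to Tbl1xr1. RefSeq also has long noncoding RNAs there that the table does not use as nearest genes: 7 of the peaks lie within Gm31813, 2 within 7530428D23Rik and 1 within Gm31610. A peak inside a transcript need not belong to it, and none of these assignments shows which gene a peak acts on. Of the 30 peaks, 6 are annotated to repeats (20%, against 11.8% of all peaks), and 16 have a mean above the median peak. The Tbl1xr1 body also holds a peak in intron 3, at 22181109 to 22181309, which the table assigns to Rprl2. Its log2 difference was 0.45 ± 0.19 in fasting and -0.32 ± 0.17 on freezing, and neither was called.

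Ncor1 and Hdac3 each have only a start peak, and both positions come with a limit. The Ncor1 body, chromosome 11 from 62315663 to 62457414, holds a further peak in an intron (62352050 to 62352250), which the table assigns to Ttc19. That peak fell on freezing, with a log2 difference of -0.98 ± 0.13 (adjusted p = 5.14e-06 by limma). RefSeq lists a second Ncor1 promoter window further into the gene that no member peak touches. The Hdac3 peak, chromosome 18 from 37954929 to 37955129, is annotated as the promoter of a Rell2 transcript. Hdac3 is read leftwards from 37955015 and Rell2 rightwards from 37955054, so 1 peak covers both starts and its reads cannot be divided between the genes.

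At Tbl1xr1, fasted and fed libraries differed in both directions within the same locus. By limma, 11 of the 32 member peaks were called higher in fasted mice and 5 lower on the average of fresh and frozen liver (adjusted p under 0.05), all of them at Tbl1xr1, against 16.5% and 18.1% of all peaks. Since fasting values may have guided the choice of the genes, nothing is read from these counts. In nuclei taken in bulk, a site open in fewer nuclei and a site less open in each cannot be told apart. Calls in both directions are common at such loci: 79 of the 99 genes with 20 or more peaks had at least 1 call each way. The counts move with the libraries and the scale. Without letter A of the fed mice 7 peaks were called higher and 3 lower, against 10.3% and 13.2% of all peaks in the same fit. Without letter B of the fed mice 4 were higher and 3 lower, against 9.56% and 12.3%. Without letter A of the fasted mice 4 were higher and 5 lower, against 9.40% and 14.2%. When each library was instead scaled by its peaks near gene starts, the median difference of all peaks shifted by -0.12, and 5 member peaks were called higher and 5 lower, against 7.74% and 24.5% of all peaks.

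**Figure D1:**
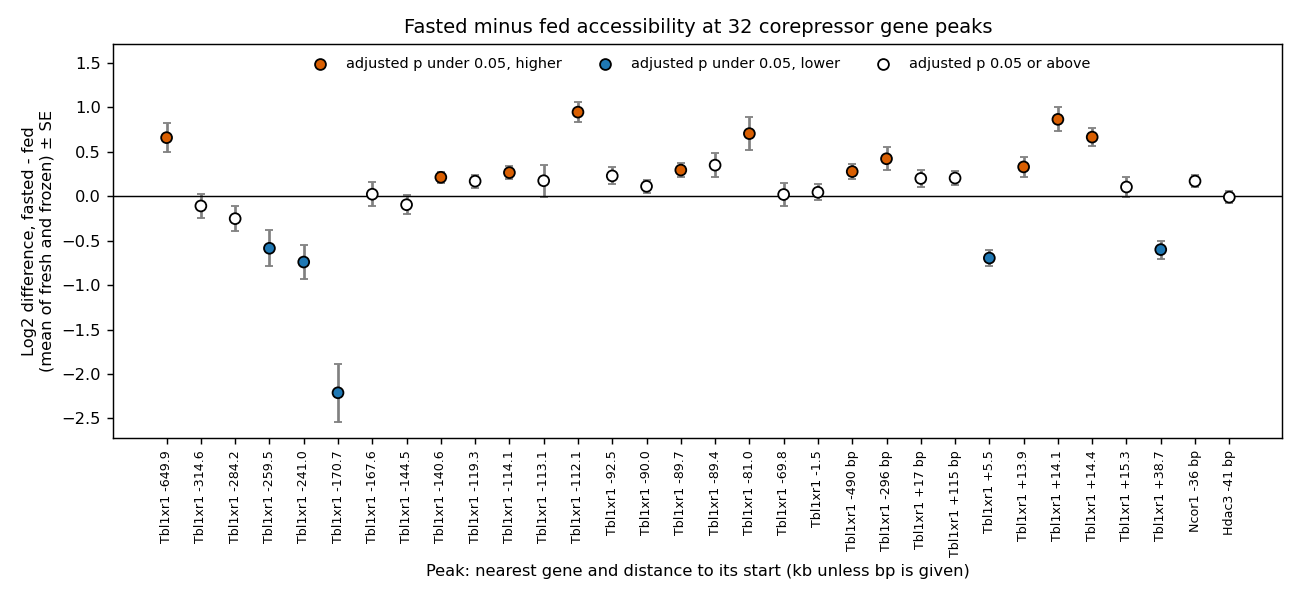
Log2 difference in normalized reads, fasted minus fed, averaged over fresh and frozen liver (y axis, ± SE, 3 mice against 3) for the 32 peaks in order of position (x axis, distance to the gene start). Filled points passed adjusted p under 0.05; the lowest point is the peak 171 kb upstream at -2.21, and the highest, at 0.95, lies 112 kb upstream.

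The calls were grouped by position. Among 13 peaks between 1 and 150 kb upstream 5 were called higher and 0 lower, with a median log2 difference of 0.21. Of the 7 peaks further than 150 kb upstream, 1 was called higher and 3 lower, around a median of -0.25. The peaks called there all rank in the lowest 25% by mean reads. The median of mean reads was 64.4 beyond 150 kb and 134.1 between 1 and 150 kb. Of the 6 in the first intron, 3 were higher and 2 lower. Over all peaks in the table the median was 0.05, and it was -0.05 for those beyond 1 kb of a start, of which 14.8% were called higher and 25.4% lower. These classes were drawn after the values were seen, and are a description only.

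The largest difference was at an intergenic peak 171 kb upstream, at 21905812 to 21906012. In fresh liver it read 66.6, 81.0 and 93.3 normalized reads in fed and 12.2, 21.8 and 13.6 in fasted libraries. In frozen liver it read 23.8, 55.7 and 47.3 in fed and 9.10, 13.9 and 4.45 in fasted libraries. All 6 fasted libraries lay below all 6 fed libraries. Averaged per mouse the peak went from 61.3 ± 14.0 in fed to 12.5 ± 4.72 in fasted mice (SD, n = 3), a log2 difference of -2.21 ± 0.32 (SE). This is a low peak, with a mean of 36.9 reads, and the lowest frozen value is 2 steps, so its fold is uncertain. The authors' deposited table lists log2 fold changes of -2.30 in fresh and -2.05 in frozen liver for it.

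The highest difference in favour of fasting was at a peak 112 kb upstream, at 21964496 to 21964696, in an intergenic stretch. Its fresh libraries read 84.3, 92.9 and 73.6 in fed and 160.8, 134.0 and 132.2 in fasted mice. Its frozen libraries read 76.2, 68.5 and 76.2 in fed and 190.2, 158.7 and 142.4 in fasted mice. Every fasted library lay above every fed one, and the mouse means were 78.6 ± 3.23 and 153 ± 19.96 (SD, n = 3), a log2 difference of 0.95 ± 0.11. Its neighbours about 1 and 2 kb away, at 113 and 114 kb upstream, differed less, at 0.18 ± 0.18 and 0.27 ± 0.07.

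A group of overlapping or adjoining peaks lies 13.9 to 15.3 kb into the first intron. At the peak 14.1 kb in, 22090626 to 22090826, fresh libraries read 110.0, 83.6 and 101.8 in fed and 181.2, 148.6 and 165.0 in fasted mice. Frozen ones read 95.3, 63.7 and 68.3 in fed and 170.2, 136.9 and 142.4 in fasted mice. Again the 6 fasted libraries all lay above the 6 fed ones, with a log2 difference of 0.87 ± 0.14. The peak 13.9 kb in shares 69 bp with it, and therefore some of its reads, and stood at 0.33 ± 0.11. At 14.4 kb, in a B4 SINE repeat, the difference was 0.67 ± 0.10 and fed and fasted libraries were apart within each preparation, at 65.1 to 70.3 against 91.9 to 110.8 in fresh and 84.6 to 97.2 against 151.7 to 164.7 in frozen liver. At 15.3 kb it was 0.10 ± 0.11.

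Either side of this group, first-intron peaks were lower in fasted mice. The peak 5.50 kb in, 22082051 to 22082251, read 176.6, 196.5 and 205.7 in fresh fed and 134.4, 125.7 and 133.4 in fresh fasted libraries, and 154.9, 119.5 and 149.8 in frozen fed and 80.1, 81.1 and 73.4 in frozen fasted libraries. The groups did not overlap within either preparation, and the log2 difference was -0.69 ± 0.09. The peak 38.7 kb in, 22115275 to 22115475, had a difference of -0.60 ± 0.10. Its fresh libraries read 180.7 to 233.7 in fed and 137.9 to 144.4 in fasted mice, and its frozen libraries 84.6 to 97.2 and 46.7 to 63.7.

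**Figure D2:**
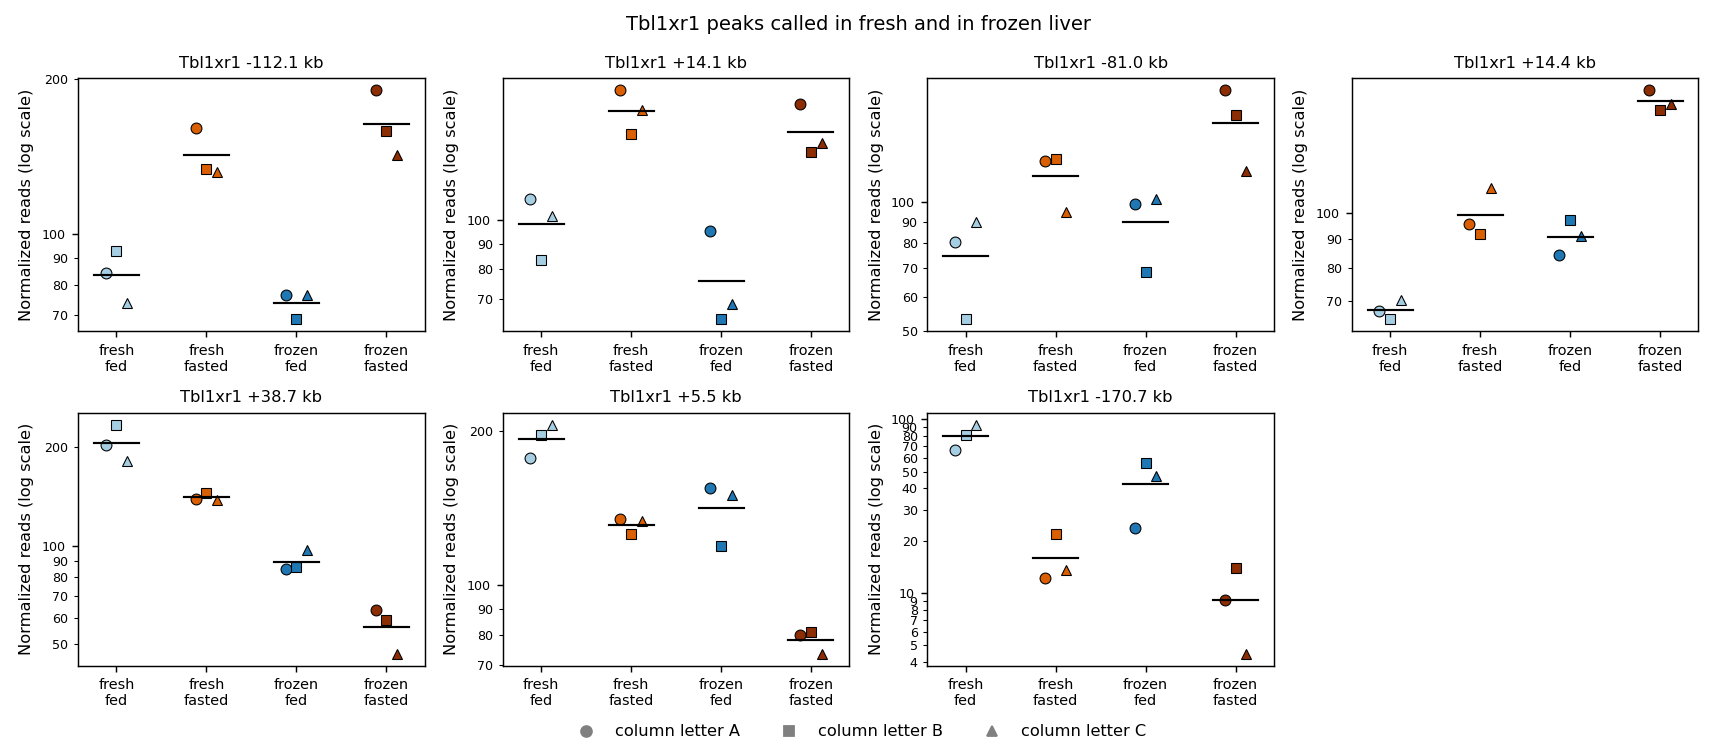
Normalized reads in each of the 12 libraries (y axis, log scale, a scale of its own in each panel) for the 7 Tbl1xr1 peaks called in the same direction in fresh and in frozen liver. Symbols mark the column letter, bars the mean of 3 libraries. Within each preparation the fasted libraries lie above the fed ones at the 4 peaks of the top row and below them at the 3 of the bottom row.

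Other upstream peaks showed smaller or less even differences. At 81.0 kb the peak read 53.1 to 90.02 in fresh fed, 94.9 to 126.2 in fresh fasted, 68.5 to 101.6 in frozen fed and 117.9 to 182.9 in frozen fasted libraries, with a log2 difference of 0.71 ± 0.19. At 241 kb it was -0.74 ± 0.19, and at 259 kb -0.58 ± 0.20. The 259 kb peak read 63.7, 65.4 and 24.5 in frozen fasted libraries. Without letter C of the fasted mice its difference was -0.33. Its call was lost there, and without letter A, B or C of the fed mice. The 241 kb call was lost after quantile normalization, at -0.47, and without letter A or B of the fed mice. The 3 peaks around 90 kb upstream stood at 0.11 ± 0.07, 0.30 ± 0.08 and 0.35 ± 0.14.

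Around the start of Tbl1xr1 all 4 peaks had positive differences, from 0.20 to 0.42, and 2 of them were called. The call went to the pair before the start used for the distances, at 490 and 296 bp, which share 6 bp. RefSeq lists the gene from 22076253, which falls in the 490 bp peak, so the 296 bp peak lies inside the listed gene. The 296 bp peak read 104.7, 67.7 and 85.4 in fresh fed, 141.8, 113.2 and 97.2 in fresh fasted, 139.4, 156.1 and 194.5 in frozen fed and 240.3, 212.7 and 189.2 in frozen fasted libraries. Its log2 difference was 0.42 ± 0.13. The peaks at 17 and 115 bp after the start, which share 102 bp, stood at 0.20 ± 0.09 and 0.21 ± 0.08. Over all 18534 peaks within 1 kb of a start the median was 0.12, with 19.7% called higher and 4.59% lower.

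The Ncor1 start peak, chromosome 11 from 62457268 to 62457468, 36 bp before the start, had the highest mean of the 32 peaks, 304.5 reads. It read 279.6, 253.6 and 256.3 in fresh fed, 297.2, 274.8 and 283.7 in fresh fasted, 334.7, 281.9 and 310.1 in frozen fed and 364.0, 366.1 and 351.6 in frozen fasted libraries. Fed and fasted libraries overlapped in fresh liver and were apart in frozen liver, and the average difference was 0.17 ± 0.07, which was not called. The same difference was called in a fit over all 12 libraries, with the columns of each feeding state and letter as a block. That fit used 1 correlation within blocks, 0.33, for all peaks. With scaling to peaks near gene starts the difference was 0.05 and after quantile normalization 0.11, and it was called in neither. With 1 mouse left out it was called only without letter A of the fed mice. The Hdac3 start peak is listed at 41 bp before a start, by an annotation that names a Rell2 transcript. It read 259.1, 241.7 and 235.9 in fresh fed, 266.7, 234.8 and 259.9 in fresh fasted, 225.1, 242.1 and 221.7 in frozen fed and 211.1, 217.9 and 229.2 in frozen fasted libraries. Fed and fasted libraries overlapped in both preparations, with a difference of -0.01 ± 0.06.

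**Figure D3:**
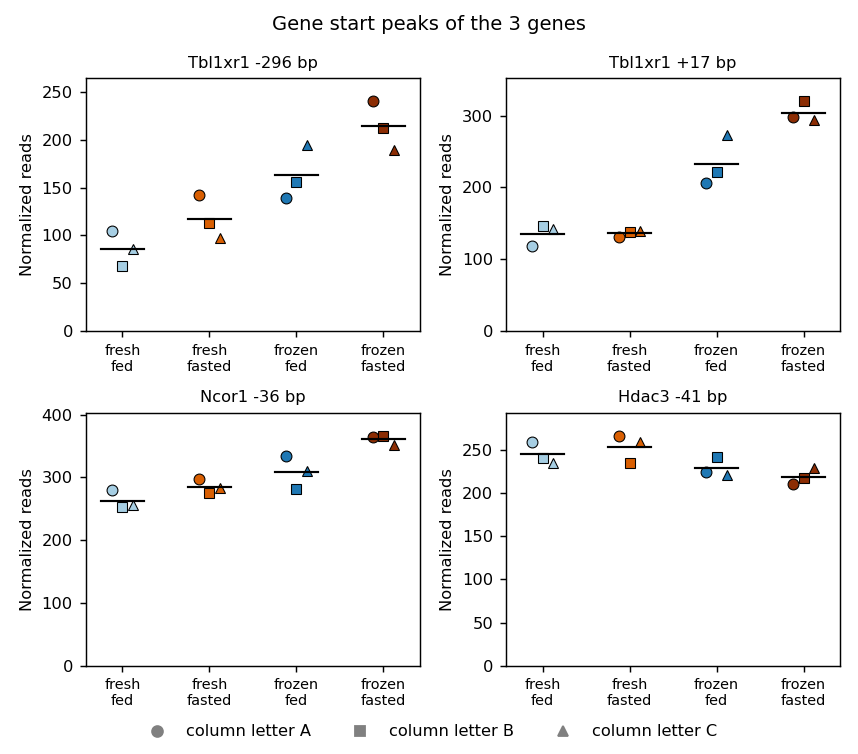
Normalized reads (y axis, from 0) in each library for 2 Tbl1xr1 start peaks and the start peaks of Ncor1 and Hdac3, by group, with bars at the mean of 3 libraries. Hdac3 keeps all 12 libraries between 211.1 and 266.7, and frozen libraries of the Tbl1xr1 peak at +17 bp all lie above the fresh ones.

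Within the preparations, 9 of 32 member peaks were called in fresh liver, where 27.6% of all peaks were, and 13 in frozen liver, where 27.8% were. Called in both were 7, of which 4 were higher and 3 lower, and 0 were called in opposite directions. A further 6, all higher, were called in frozen liver alone, and 2 in fresh liver alone. The shares of all peaks called in both preparations, or in fresh or frozen liver alone, were not counted. These counts therefore have no background and describe the members only. In the authors' deposited table, adjusted p was under 0.05 at 8 member peaks for fresh liver and at 14 for frozen liver, against 23.1% and 29.5% of all its peaks. Both preparations come from the same mice, so they are not independent.

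Whether the fasting difference itself differed between frozen and fresh liver was fitted as an interaction over the 12 libraries. It is built from the fasting values, so its calls too are only counted. By limma 0 of the 32 peaks passed, as did 0 of all peaks (0%), and 4 had an unadjusted p under 0.05, against 5.14% of all peaks. With columns of the same state and letter paired, as a replicate block, 1 member peak passed, and 0.752% of all peaks did. This was the outermost peak, 650 kb upstream at 21426644 to 21426844. It read 67.4, 90.3 and 73.6 in fresh fed and 90.9, 98.2 and 72.3 in fresh fasted libraries, which overlap, and 25.02, 39.8 and 33.3 in frozen fed and 59.2, 75.8 and 84.6 in frozen fasted libraries, which do not. The frozen difference exceeded the fresh one by 0.97 on the log2 scale, with an SE of 0.22 with the block and 0.29 without it. The start peaks at 17 and 115 bp also had larger differences in frozen liver, by 0.38 and 0.33, and were called in neither fit after adjustment.

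**Figure D4:**
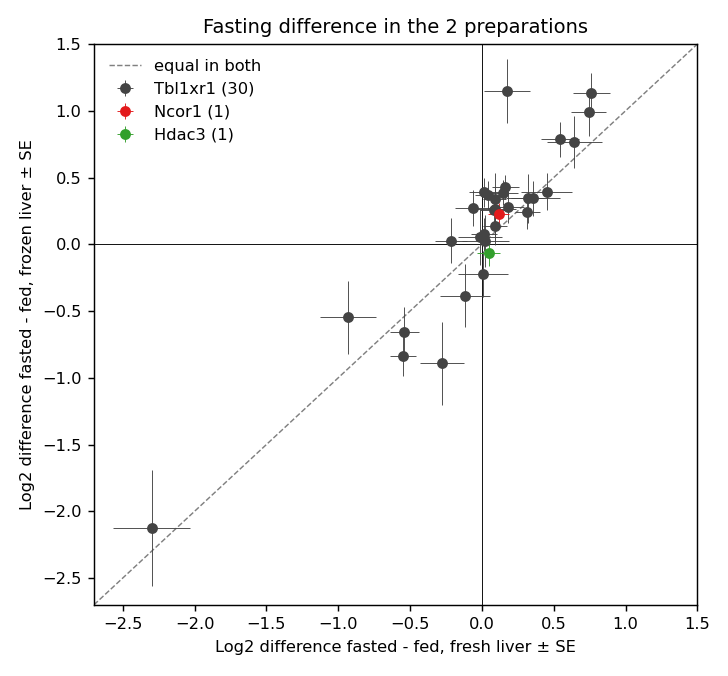
Log2 difference fasted minus fed in fresh liver (x axis) against that in frozen liver (y axis), each ± SE, for the 32 peaks, with the dashed line where both are equal. In all, 27 peaks have the same sign in both preparations, and the peak farthest above the line is the one 650 kb upstream. The share of all peaks with the same sign was not counted.

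Frozen libraries were set against fresh ones, 6 against 6, in a fit that allowed for feeding state. This fit did not pair the fresh and frozen libraries of each mouse, and its SEs and p-values ignore that pairing. By limma 12 of 32 peaks rose (37.5%, against 28.7% of all peaks) and 12 fell (37.5%, against 32.8%). Without the lowest 25% of peaks, 24 members were tested, of which 12 rose and 6 fell, against 36.01% and 27.2% of all peaks in that fit. After quantile normalization 14 of 32 rose and 8 fell, against 28.4% and 29.4%. With columns of the same state and letter paired, 13 of 32 rose and 12 fell, against 32.2% and 37.9%. Frozen and fresh libraries did not overlap at 8 peaks that were higher and 4 that were lower in frozen liver, against 26.9% of all peaks in either direction; for fed and fasted libraries this held at 3 member peaks, against 12.9%. The start peaks of Tbl1xr1 all rose, by 0.49 to 0.96. Over all peaks within 1 kb of a start the median was 0.06, and 37.6% were called higher. The Tbl1xr1 start peaks at 17 and 115 bp share 102 bp, and therefore some of their reads. The peak at 17 bp, which lies on the sequence shown above, rose from 136 ± 9.98 in the 6 fresh to 269 ± 45.3 in the 6 frozen libraries (SD), a log2 difference of 0.96 ± 0.09 (adjusted p = 8.66e-08 by limma). All 6 frozen values exceeded all 6 fresh ones.

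The peak that rose most on freezing, by 0.99 ± 0.11 (adjusted p = 1.20e-06 by limma), lies 89.4 kb upstream in a B4 SINE repeat. Its fresh libraries read 53.1 to 105.1 and its frozen libraries 128.8 to 200.3. The neighbours at 89.7 and 89.96 kb rose by 0.60 and 0.26. The peak 38.7 kb into the first intron fell most, from 173 ± 39.6 to 72.9 ± 19.3 reads, with a log2 difference of -1.25 ± 0.09 (adjusted p = 9.98e-09 by limma). The peak 171 kb upstream also fell, with -0.89 ± 0.27 (adjusted p = 0.00819 by limma), but after quantile normalization it stood at -0.36 and no longer passed. The peak 112 kb upstream had a difference of 0.01 ± 0.10 and did not pass.

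**Figure D5:**
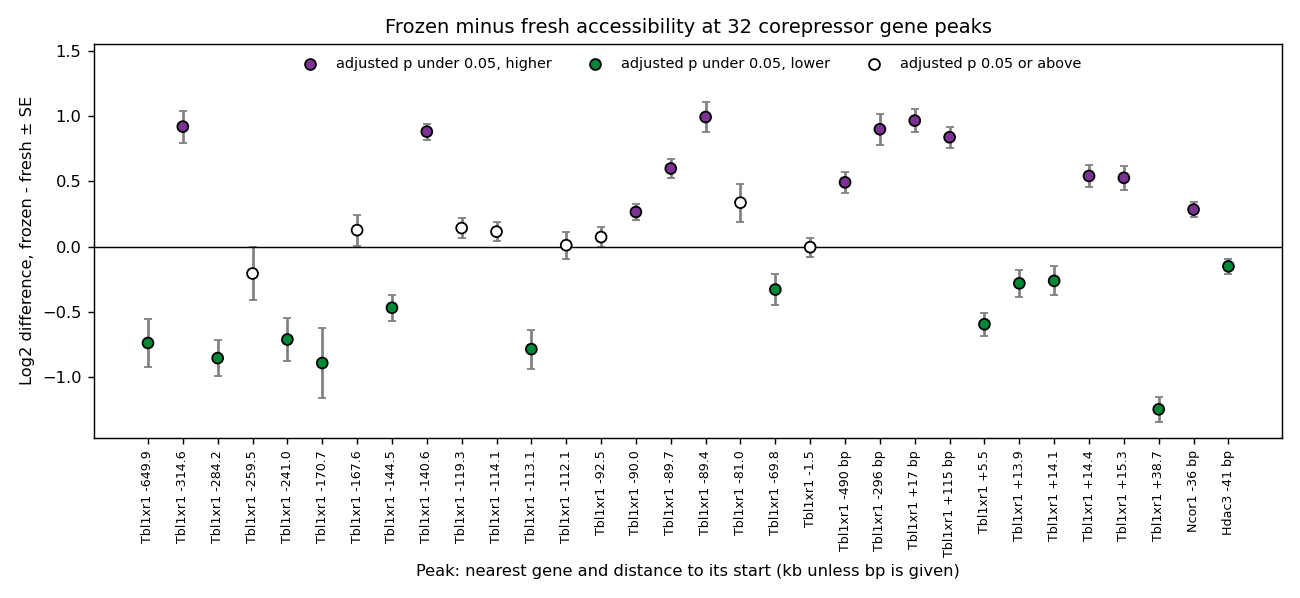
Log2 difference in normalized reads, frozen minus fresh (y axis, ± SE of the unpaired fit, 6 libraries against 6) for the 32 peaks in order of position (x axis, distance to the gene start). Filled points passed adjusted p under 0.05: 12 lie above and 12 below the line at 0, and the 4 Tbl1xr1 start peaks are all above it.

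Ncor1 and Hdac3 moved in opposite directions on freezing. The Ncor1 start peak rose from 274 ± 16.7 to 335 ± 33.2 reads, a log2 difference of 0.28 ± 0.05 (adjusted p = 0.000250 by limma), and the Hdac3 start peak fell from 250 ± 13.9 to 225 ± 10.6 reads, with -0.15 ± 0.06 (adjusted p = 0.0286 by limma). Fresh and frozen libraries overlapped at both. The Hdac3 call was lost without letter A of the fed mice, or without letter A or C of the fasted mice (adjusted p by limma 0.0788, 0.135 and 0.0514). Start peaks of the hepatocyte markers moved with both comparisons: their summed reads were 2209 to 2292 in fresh fed, 2384 to 2603 in fresh fasted, 2885 to 3064 in frozen fed and 3265 to 3670 in frozen fasted libraries. The 1 bile duct start peak read 65.1 to 83.4 in fresh fed, 86.2 to 111.9 in fresh fasted, 99.0 to 137.0 in frozen fed and 97.9 to 118.6 in frozen fasted libraries. The 1 stellate start peak overlapped between all groups, from 51.2 to 134.0 over the 12 libraries. The part of these marker peaks in the members' differences was not tested.

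Summed over its 30 peaks, Tbl1xr1 held 3450 to 3586 normalized reads in fresh fed, 3573 to 3753 in fresh fasted, 3710 to 4048 in frozen fed and 4413 to 4803 in frozen fasted libraries. The sum hides the peaks that went down. By Pearson r over the 12 libraries among 11081 gene start peaks, those most like the Tbl1xr1 start peak were of Ammecr1l (0.989), Dcakd (0.988) and Ndufs5 (0.985). Those most like Ncor1 were of Atg5 (0.985), Rprd1a (0.984) and Naa16 (0.963), and those most like Hdac3 of Pcnt (0.949), Ttl (0.908) and Ankzf1 (0.905). Among the members themselves r was 0.826 for Tbl1xr1 with Ncor1, -0.827 for Tbl1xr1 with Hdac3 and -0.638 for Ncor1 with Hdac3. These values are descriptions, and the points share preparation, feeding state and mice.

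Further subunits of the complex were counted in the same fits. Tbl1x, the relative of Tbl1xr1, had 0 peaks called higher and 1 lower in fasted mice of 6, and Gps2, a small subunit, 0 and 0 of 1. Their median log2 differences were 0.10 and 0.19, against 0.19 over the 30 Tbl1xr1 peaks. On freezing Tbl1x had 5 higher and 0 lower. Of the 5 other class I and IIa deacetylase genes with peaks, Hdac4 had 2 lower of 8 in fasted mice, and Hdac1, Hdac2, Hdac5 and Hdac8 had 0 called.

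Among 15 nuclear receptors and repressors that recruit the complex, 28 peaks were called higher and 38 lower in fasted mice of 184. Their median log2 difference was 0.08. Zbtb16, a zinc finger repressor, had 9 higher and 1 lower of 26, Rara, a retinoic acid receptor, 1 and 8 of 20, and Ppara, the receptor that drives fat oxidation in fasting, 3 and 8 of 21. On freezing 72 peaks of this list were higher and 26 lower. Other corepressor and coactivator genes had 13 higher and 11 lower of 88 in fasted mice, with 6 and 0 of 17 at Ppargc1a, a coactivator induced by fasting. The counts were 3 and 0 of 5 at Ctbp1, but 0 and 5 of 10 at Ncoa3 and 0 and 3 of 12 at Ncoa2. The shares over all peaks given above, 16.5% and 18.1% in fasting and 28.7% and 32.8% on freezing, are the background for these counts.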

How the data were processed

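ATAC-seq libraries came from about 25000 bead-bound nuclei each, with 12 PCR cycles, per the labels' protocols. Per the submitters' processing notes, the build was mm10 and the tools were DESeq2, HOMER, SAMtools and BWA 0.7.5a-r405, without roles. How reads were shifted, duplicates handled and peaks called is not stated in these sources. The authors deposited normalized signal per merged peak, called normalized reads here. Every value is a whole multiple of a step per library (within 0.001 steps), and depths are given in steps. They also deposited log2 fold changes, p-values (adjusted, test not named) and a peak score, which was not used.

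Values were analysed as log2(value + 1), without a filter, in R 4.3.3 by limma 3.58.1 with a trended prior. Tests were two-sided, with Benjamini-Hochberg adjustment over all 52530 peaks and a threshold of 0.05. The fit was also run on simulated counts, with 1 step taken as 1 read and no difference between mice of a state. The real data may differ in both, so nothing here rests on that run. Log2 differences understate the change of low peaks. Fasting was fitted on the mean of both libraries of a feeding state and column letter, 3 against 3. The labels number 6 mice with 1 library per preparation, but columns carry letters. Fresh and frozen columns of the same state and letter deviated together (r from 0.329 to 0.640 in 6 pairs, highest r with another letter 0.102), above the 0.1 set for pairing, so pairing comes from the data. Columns were assigned to groups by name; all were used. Separate mice are the replicates within a group.

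Peaks to name were set by rule: the start peak of each gene, up to 3 called each way for fasting and 2 for freezing, and those nearest the threshold; the other peaks described were chosen after their values were seen. Members and lists were chosen with earlier results of these data known. A count test was not run, because in most columns the smallest value exceeds 1 step, which leaves unsettled whether a step is 1 read. Counting intervals would cover counting error only. 1 gene of the lists is not reported here.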

Additional observations from a re-analysis of the deposited data

How the results depend on the processing

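The count of member peaks called higher in fasted mice, 11, became 5 with scaling to peaks near gene starts, against 7.74% of all peaks. When 1 mouse was left out it lay between 4 and 12, against 9.40% to 15.3% of all peaks. The count called lower, 5, became 2 without the lowest 25% of peaks, where 24 of 32 members were tested. In that fit 13.5% of all peaks were called lower. With 1 mouse left out the count called lower lay between 3 and 5, against 12.3% to 18.3% of all peaks. The freezing count of 12 lower became 6 without those low peaks, against 27.2% of all peaks in that fit. With the replicate block, pairing columns by letter, the interaction count went from 0 to 1, and the fasting counts were 13 higher and 4 lower. Pseudocounts of 0.5 and 5 and quantile normalization left the counts within 1.5 times. Alternatives for single peaks were run for 13 named peaks, on their fasting and freezing differences. Among these, sign changes occurred in 3 differences, which had not been called: Hdac3 in fasting (-0.036 to 0.020 with 1 mouse left out), and on freezing the peak 259 kb upstream (0.027 after quantile normalization, -0.31 to 0.014 with 1 mouse left out) and the peak 112 kb upstream (-0.062 with scaling to start peaks, and -0.036 to 0.099 with 1 mouse left out). The cause of these changes was not tested. The planned edgeR test was not run, since it was not settled that a step is 1 read: in most columns the smallest value exceeds 1 step. Depth limits the low peaks most: member values are 2 to 529 steps.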
